A study of Rattus norvegicus with 6 samples.

Results

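The deposited small RNA tables of 6 rat hearts hold, beside the miRNAs with miRBase names, entries marked as predicted and not as known miRNAs. Described here are the predicted entries of miRNA length. They were chosen as the predicted IDs with a listed mature sequence of at least 20 bases, 1 row for each ID, and 144 entries met this out of 1191 in all. A further 345 predicted entries were shorter, 3 predicted IDs were left out by name and were shorter too, and 699 entries carried miRBase names. The study has 3 wild-type hearts subjected to ischemia-reperfusion, whose left anterior descending coronary artery was closed by a ligature for 0.5 h and reopened for 0.5 h, set against 3 wild-type normal hearts labelled control. Strain, age and sex were not used here, and all 6 libraries came from tissue labelled heart. Entries are called here by the chromosome and running number of their authors' ID.

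A miRNA is cut from a hairpin precursor by Drosha and Dicer and loaded into an Argonaute protein. Its bases 2 to 8, the seed, pair with target mRNAs, which are then repressed, so that miRNAs with the same seed can share targets. Programs that predict miRNAs look for stacks of tags on a sequence that can fold into a hairpin. Variants of known miRNAs, their extra gene copies and fragments of other small RNAs can meet the same criteria, so a predicted entry is a candidate and not an established miRNA. Tied and reopened coronary arteries are a standard model of infarction with restored blood flow, and heart muscle is rich in miR-1 and miR-133.

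The listed sequences divided the members into near copies of named miRNAs and others. The 2 most abundant members and several others resembled named miRNAs, which are shown beside them with the seed in capitals. All are RNA, written 5′ to 3′ as the deposited table lists them.
chr10_4557: aCUGGACUuggagucagaaga
chr2_44536: gCUGGACUuggauucagaaga
miR-378a-3p: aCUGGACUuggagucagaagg
chr3_46757: aCAGUAGUcugcacauugguu
miR-199a-3p: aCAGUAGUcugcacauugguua
chr18_24591: gGGAAUGUaaagaaguauuc
chr13_10416: uGGAAUGUaaagcagaaugu
miR-1b: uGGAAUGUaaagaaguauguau
chr3_51881: cAGUGCAAuguuaaaagggcauc
miR-130a-3p: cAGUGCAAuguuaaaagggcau
chr14_14924: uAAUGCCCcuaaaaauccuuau
chr4_58209: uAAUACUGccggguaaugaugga
miR-200c-3p: uAAUACUGccggguaaugaug
chr8_76506: cUCCAGUUuucccaggaauca
miR-145-5p: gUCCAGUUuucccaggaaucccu
chr9_80776: aUCAAGUAauacaggauaga
chr10_4557 and chr2_44536 share the seed of miR-378a-3p, and chr18_24591 and chr13_10416 share that of miR-1b. The sequence of chr10_4557 differs from miR-378a-3p by 1 substitution, G21A, with the named miRNA's base first and positions counted from its 5′ end. That of chr3_46757 lies within miR-199a-3p, chr3_51881 contains miR-130a-3p, chr4_58209 contains miR-200c-3p, and chr14_14924 equals miR-365-3p.

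The 8 members with the largest rises at a mean of at least 10 CPM (counts scaled to a common library size) are shown next, because they carry the difference between the groups and share no seed family with the set above. The seed is again in capitals.
chr12_8764: uGGACUGGgcuguggaacaggccc
chrX_83585: aGGUUGUGgaucugcugguu
chr2_42281: cGCGCGCCgcggccggacggg
chr2_42282: cGCGCGCCgcggccggacggg
chr4_58563: uGCACUGUgcucuucaaggu
chr18_24969: gUCCUAGUcuaggugcgaacaauu
chr3_50149: cUGGGAAGuaggagcugacu
chr6_67085: gAGGAACAagacaaccuggc
chr2_42281 and chr2_42282 list the same mature sequence. The tags counted were often not the listed sequence. The tag that the authors' table gives as the most abundant is shown here for 3 of these members, in DNA letters, with the base that differs from the listed sequence in capitals.
chr2_42282: gggcgcgcgccgcggcTggacg
chr3_50149: ctggAaagtaggagctgact
chr12_8764: gacatggactgggctgtggaacaggccc
For chr2_42282 the change was C14U and for chr3_50149 it was G5A, counted from the listed 5′ end with the listed base first. The tag of chr12_8764 held the whole listed sequence and reached 28 bases, although its counts summed to 55 over the 6 libraries and those of the exact listed sequence to 64. The tags of chr2_42281, chrX_83585 and chr4_58563, not shown, were shorter than 20 bases, at 19, 17 and 15 bases. Those of chr6_67085 and chr18_24969 were 23 and 24 bases long.

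RefSeq hairpins (GRCr8) contained the listed sequence of 8 of the 144 members, and 136 matched none. chr3_51881 lay in Mir130a at chr3:90229239-90229261 on the minus strand, and chr4_58209 in Mir200c at chr4:159209967-159209989 on the minus strand. chr14_14924 lay in Mir365b at chr10:65184271-65184292 on the plus strand. The others were chrX_82405 in Mir450a1, chr1_36993 in Mir483, chr1_31314 in Mir147, chr19_28303 in Mir3074 and chr6_65444 in Mir1193. In 5 of the 8 the RefSeq chromosome was that of the authors' ID and in 3 it was another. The listed sequence equalled an annotated mature arm in 3 of them, miR-365-3p, miR-483-3p and miR-1193-3p.

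Counts summed over all isoforms of an entry totalled 1376947, 2186243 and 2814802 in ischemia-reperfusion replicates 1 to 3, against 6963312, 8259263 and 8429988 in normal replicates 1 to 3. The deepest ischemia-reperfusion library fell short of the shallowest normal one, and depth cannot be told apart from the groups. Heart muscle miRNAs took 22.03% to 31.2% of counts after ischemia-reperfusion and 22.5% to 40.5% in normal hearts, with all 8 of them detected in every library. Leukocyte miRNAs took 0.0548% to 0.0610% after ischemia-reperfusion and 0.0540% to 0.0651% in normal hearts, red cell miRNAs 0.164% to 0.203% after ischemia-reperfusion and 0.238% to 0.263% in normal hearts, and liver miRNAs 0.0836% to 0.178% after ischemia-reperfusion and 0.0602% to 0.101% in normal hearts. Endothelial miRNAs took 5.73% to 7.13% after ischemia-reperfusion and 5.45% to 10.6% in normal hearts, and those of smooth muscle and fibroblasts 12.3% to 14.1% after ischemia-reperfusion and 11.9% to 13.3% in normal hearts. No listed marker was at 0 in any library. In such bulk libraries fewer cells of a type and less RNA per cell cannot be told apart. The red cell share did not overlap between the groups, and its part in the members' results was not tested.

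The members were few and mostly rare. They listed 134 distinct sequences of 20 to 25 bases, most often 22 bases, which 41 members had, and the first base was U in 43.1% of members, against 26.7% of shorter predicted entries and 36.6% of named miRNAs. The median member had 18 counts over all 6 libraries together, 33 had at least 100, and 12 had none. Counts were present for 80, 85 and 81 members in ischemia-reperfusion replicates 1 to 3 and for 74, 88 and 89 members in normal replicates 1 to 3. At the depth of the shallowest library, with at least 2 counts required, the expected numbers were 80.0, 70.6 and 61.6 in ischemia-reperfusion replicates and 42.4, 48.4 and 48.3 in normal replicates, so at equal depth the expected number was higher in each ischemia-reperfusion heart than in any normal one.

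In the comparison of ischemia-reperfusion with normal hearts, 46 of the 144 members had enough counts to be tested. Of these, 23 rose, 2 fell and 21 did not pass an adjusted p of 0.05 (edgeR quasi-likelihood test, Benjamini-Hochberg adjustment over all 524 entries tested). Over all 524 entries 42.7% were called, 33.4% higher and 9.35% lower. Tested members had a median log2 fold change of 0.82, and all tested entries one of -0.17. Shorter predicted entries had a median of 4.72, with 146 of 170 called higher and 5 lower, and named miRNAs a median of -0.40, with 3 of 305 higher and 42 lower. The members' median lay between those of the shorter predicted entries and the named miRNAs. The 23 that rose list 20 distinct sequences. Their groups did not overlap in any of the 23, which is no further support because the same values gave the calls. Of the 46 tested members, 24 had every ischemia-reperfusion library above every normal one, and 7 had every one below. Over all tested entries these shares were 34.2% and 25.2%.

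**Figure D1:**
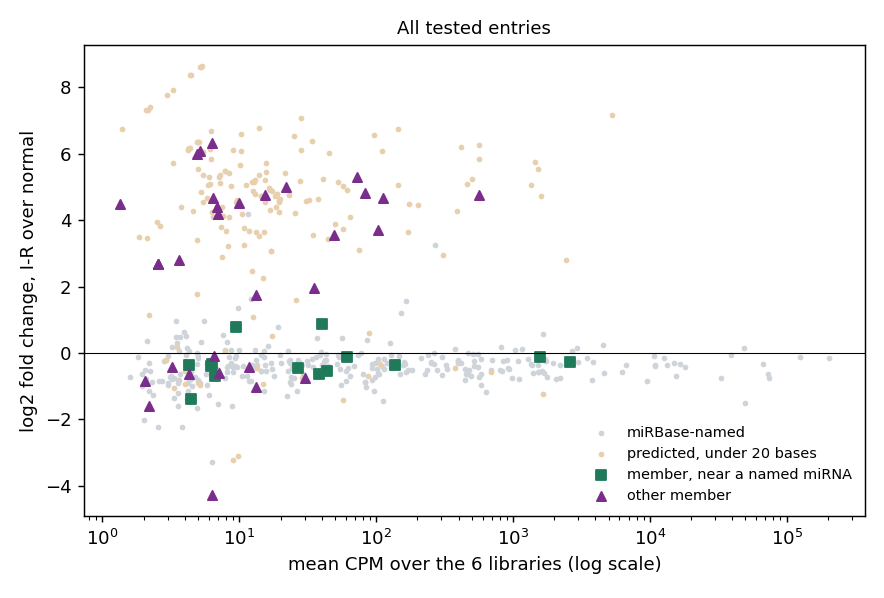
Log2 fold change of ischemia-reperfusion over normal hearts (y axis) against mean CPM over the 6 libraries (x axis, log scale) for all 524 tested entries, with members near a named miRNA as squares and other members as triangles. The squares lie among the named miRNAs, and most triangles lie among the shorter predicted entries. The 3 members at 0 in all normal libraries are drawn at their lower bound.

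How close a member was to a named miRNA separated the members that rose from most of those that did not pass. Members were called near copies where their most abundant tag aligned to a named miRNA over at least 18 bases with at most 3 mismatches, a division made after the values were seen and given with no test. Of 25 near copies 14 were tested, and 1 rose, 0 fell and 13 did not pass, with a median log2 fold change of -0.37. In the TMM fit and in DESeq2 0 near copies fell at an unadjusted p under 0.05 as well. With upper-quartile scaling, which put the median of all tested entries at -0.67, 0 near copies rose and 5 fell, with a near-copy median of -0.84 (edgeR). The share of all entries called lower with that scaling is not given here, so these 5 falls are not read as particular to near copies. Of the 119 other members 32 were tested, and 22 rose, 2 fell and 8 did not pass, with a median of 3.17, which stays the same with the 3 members at 0 in normal hearts at their lower bound. The near copies together took 0.468%, 0.472% and 0.454% of counts in ischemia-reperfusion replicates 1 to 3, against 0.443%, 0.471% and 0.449% in normal replicates 1 to 3. The other members took 0.343%, 0.235% and 0.175% after ischemia-reperfusion, against 0.0192%, 0.0230% and 0.0273% in normal hearts. The near copies overlapped between groups, and the other members were higher in every ischemia-reperfusion library than in any normal one.

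**Figure D2:**
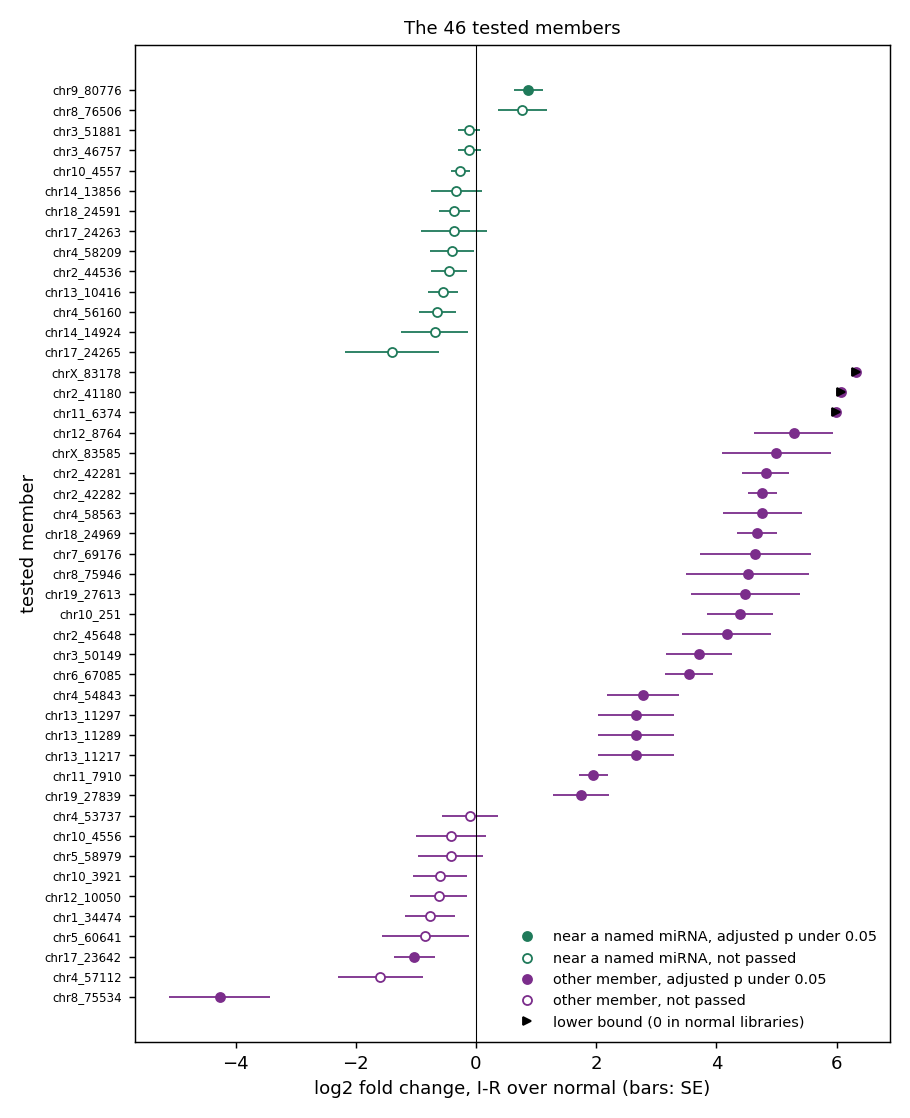
Log2 fold change of ischemia-reperfusion over normal hearts (x axis, bars are SE) for the 46 tested members (y axis), with near copies of named miRNAs at the top. Filled points passed an adjusted p of 0.05, which 1 of 14 near copies and 24 of 32 other members did, and arrowheads mark the 3 lower bounds.

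chr10_4557, the miR-378a-like entry, was the most abundant member. It had 2424, 2344 and 2414 CPM in ischemia-reperfusion replicates 1 to 3, against 2434, 2839 and 3324 CPM in normal replicates 1 to 3. Tags are whole small RNAs, so CPM are not divided by length. The ischemia-reperfusion libraries lay just below the normal ones, and the log2 fold change of -0.26 ± 0.15 (SE) did not pass (edgeR adjusted p = 0.220). With other scaling it was 0.09 when factors were taken from named miRNAs, and -0.77 with upper-quartile scaling, where it was called lower (edgeR adjusted p = 0.0192). Its counts equalled 15.5 ± 0.488% of those of miR-378a-3p after ischemia-reperfusion and 13.9 ± 0.960% in normal hearts (SD, n = 3 each). miR-378a-3p, which is encoded within Ppargc1b and is abundant in heart and skeletal muscle, had a log2 fold change of -0.41 ± 0.16 that did not pass either (edgeR adjusted p = 0.0809). chr2_44536, which shares its seed, had 24.6, 21.4 and 21.8 CPM after ischemia-reperfusion, against 22.4, 29.5 and 40.2 CPM in normal hearts, with overlapping groups (log2 fold change -0.45, edgeR adjusted p = 0.277). It too was called lower with upper-quartile scaling, at -0.96.

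chr3_46757, the entry within miR-199a-3p, had 1404, 1573 and 1600 CPM after ischemia-reperfusion and 1958, 1733 and 1261 CPM in normal hearts. The groups overlapped, and the log2 fold change was -0.11 ± 0.19 (SE; edgeR adjusted p = 0.636), with a sign that turned to 0.12 with total counts as the scale. Its counts were 95.1 ± 3.83% of those listed for miR-199a-3p after ischemia-reperfusion and 91.0 ± 2.18% in normal hearts (SD, n = 3 each). The entry and the named miRNA, which is expressed in muscle and mesenchymal cells, list nested sequences, and whether the same tags were counted for both was not tested. chr3_51881 and chr4_58209 had exactly the counts of miR-130a-3p and miR-200c-3p in all 6 libraries, so each pair holds 1 set of counts under 2 names. chr3_51881 had 61.5, 55.5 and 58.4 CPM after ischemia-reperfusion, against 54.2, 65.5 and 69.5 CPM in normal hearts. Its log2 fold change of -0.11 ± 0.18 did not pass (edgeR adjusted p = 0.634), and it turned positive, at 0.13, with total counts as the scale. chr4_58209, whose named counterpart is known from epithelia, had 4.53, 5.34 and 6.22 CPM after ischemia-reperfusion and 6.93, 7.13 and 7.40 CPM in normal hearts, and did not pass (log2 fold change -0.40, edgeR adjusted p = 0.404).

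The 2 entries with the miR-1 seed did not pass with TMM scaling, and both were called lower with upper-quartile scaling, chr18_24591 at -0.87 and chr13_10416 at -1.04 (edgeR adjusted p = 0.0338 and 0.0198). miR-1 is a muscle miRNA that acts in heart development and conduction. chr18_24591 had 115, 108 and 139 CPM after ischemia-reperfusion, against 214, 122 and 129 CPM in normal hearts, and the groups overlapped (log2 fold change -0.36 ± 0.26, edgeR adjusted p = 0.302). Its most abundant tag differed from miR-1b by U1G and U20C. chr13_10416 had 31.1, 32.1 and 43.5 CPM after ischemia-reperfusion, against 63.6, 48.5 and 43.9 CPM in normal hearts. Each ischemia-reperfusion library lay below each normal one by a narrow margin (log2 fold change -0.54 ± 0.25, edgeR adjusted p = 0.131). Their counts were 0.0636 ± 0.0114% and 0.0185 ± 0.00202% of those of miR-1b after ischemia-reperfusion, and 0.0718 ± 0.0141% and 0.0243 ± 0.00135% in normal hearts (SD, n = 3 each). chr14_14924, which equals miR-365-3p, had 4.53, 5.34 and 5.18 CPM after ischemia-reperfusion and 14.5, 5.09 and 4.89 CPM in normal hearts, where 1 library stood above the rest (log2 fold change -0.69, edgeR adjusted p = 0.359).

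The near copy that rose was chr9_80776, named here after its values were seen. It had 60.8, 40.3 and 55.9 CPM after ischemia-reperfusion, against 27.1, 26.998 and 31.8 CPM in normal hearts. The groups did not overlap, and the log2 fold change was 0.87 ± 0.24 (SE; edgeR adjusted p = 0.0243). Its most abundant tag differed from miR-26a-5p by U1A and G20A, and its counts were 0.102 ± 0.0186% of those of miR-26a-5p after ischemia-reperfusion and 0.0624 ± 0.00481% in normal hearts (SD, n = 3 each). miR-26a-5p itself had a log2 fold change of 0.15 ± 0.13 (edgeR adjusted p = 0.379). The call on chr9_80776 was lost without any 1 of the normal libraries, at log2 fold changes of 0.75, 0.75 and 0.88 without normal replicates 1, 2 and 3, with upper-quartile scaling, at 0.35, and with no filter, at 0.78. A block for replicate number in the fit ended this call too. chr8_76506, 1 substitution from miR-145-5p in its most abundant tag, C21A, had 11.6, 11.5 and 12.4 CPM after ischemia-reperfusion, against 9.92, 5.99 and 5.02 CPM in normal hearts. Its groups did not overlap, but it did not pass (log2 fold change 0.77 ± 0.41, edgeR adjusted p = 0.180).

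Among the other members the rises were large. chr2_42282 had 1354, 1002 and 893 CPM in ischemia-reperfusion replicates 1 to 3, against 45.8, 39.5 and 34.1 CPM in normal replicates 1 to 3. The lowest ischemia-reperfusion library stood far above the highest normal one, and the log2 fold change was 4.77 ± 0.24 (SE; edgeR adjusted p = 0.000180). chr2_42281, with the same listed sequence of mostly G and C, had 219, 131 and 128 CPM after ischemia-reperfusion, against 3.94, 7.90 and 4.89 CPM in normal hearts, and a log2 fold change of 4.82 ± 0.39 (edgeR adjusted p = 0.000712). Its counts were 14.5 ± 1.59% of those of chr2_42282 after ischemia-reperfusion and 14.3 ± 5.70% in normal hearts (SD, n = 3 each), and the 2 entries count as 1 sequence family here. Neither had a single count of the exact listed sequence in any library.

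chr18_24969 had 234, 252 and 164 CPM after ischemia-reperfusion, against 11.8, 6.37 and 7.27 CPM in normal hearts. All ischemia-reperfusion values were well above the normal ones (log2 fold change 4.67 ± 0.34, edgeR adjusted p = 0.000668). Unlike most members that rose, its listed sequence was also its most abundant tag, with 147, 217 and 118 exact counts after ischemia-reperfusion, against 25, 20 and 27 in normal hearts. chr12_8764 had 236, 111 and 75.6 CPM after ischemia-reperfusion, against 1.58, 5.86 and 3.17 CPM in normal hearts, with a log2 fold change of 5.28 ± 0.66 (edgeR adjusted p = 0.00217). Its ischemia-reperfusion libraries differed among themselves, replicate 1 being the highest, yet all lay above the normal range. chr3_50149 had 315, 170 and 94.3 CPM after ischemia-reperfusion, against 8.51, 14.5 and 20.9 CPM in normal hearts (log2 fold change 3.71 ± 0.55, edgeR adjusted p = 0.00318).

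The remaining rises under the same rule were in rarer entries. chr6_67085 had 118, 74.4 and 78.7 CPM after ischemia-reperfusion and 4.25, 8.02 and 10.7 CPM in normal hearts (log2 fold change 3.55, edgeR adjusted p = 0.00215). chrX_83585 had 76.4, 37.0 and 13.8 CPM after ischemia-reperfusion, against 1.58, 2.04 and 0.264 CPM in normal hearts (log2 fold change 5.00, edgeR adjusted p = 0.00531). chr4_58563 had 49.2, 28.8 and 11.7 CPM after ischemia-reperfusion, against 1.26, 0.764 and 1.19 CPM in normal hearts (log2 fold change 4.76, edgeR adjusted p = 0.00278). The groups did not overlap in these entries, although the last 2 were spread widely over the ischemia-reperfusion hearts.

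**Figure D3:**
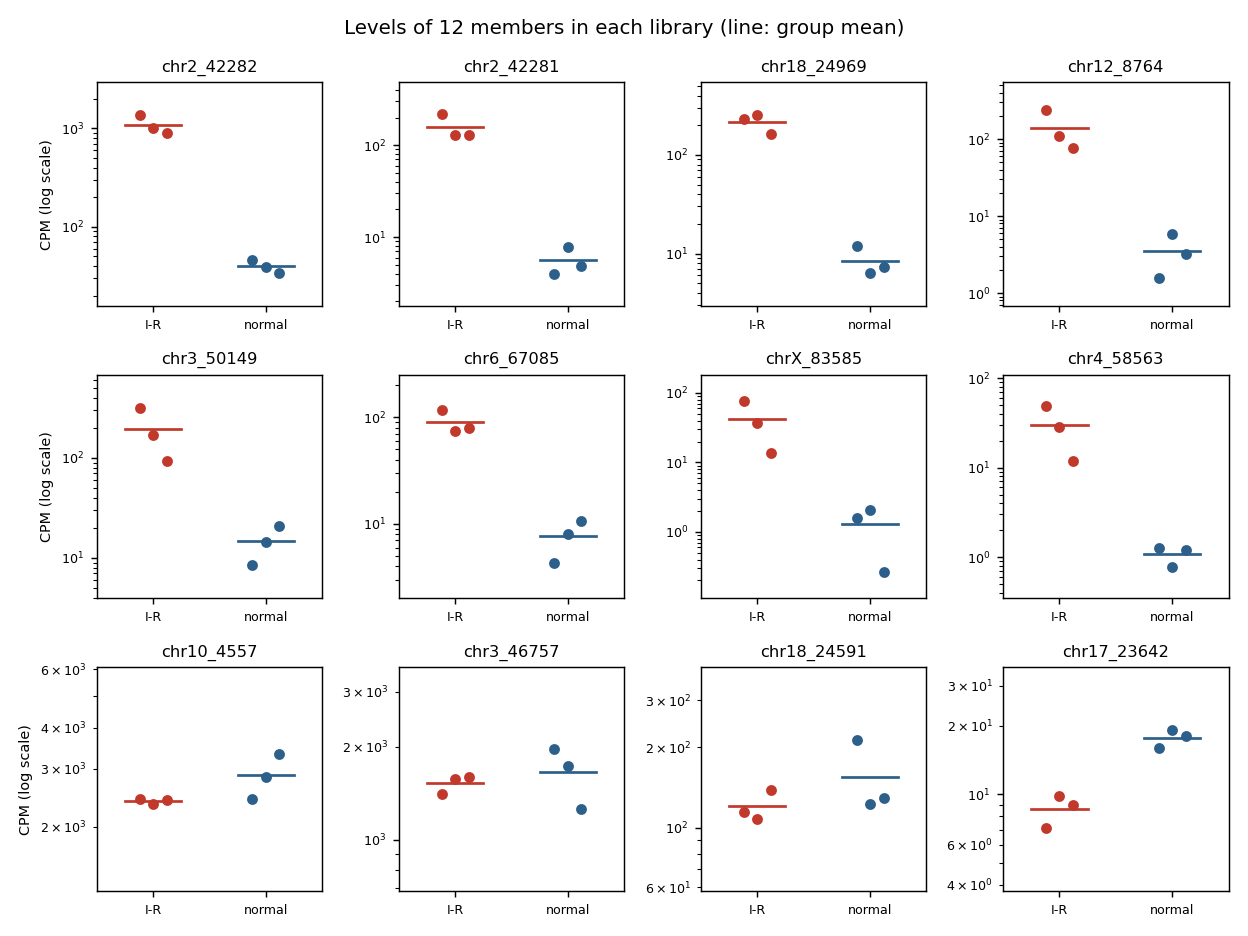
CPM on log axes (each panel has its own range) of 12 members in each library, with ischemia-reperfusion hearts left of normal hearts and a line at each group mean. The 8 members of the upper panels are higher in every ischemia-reperfusion library, chr10_4557, chr3_46757 and chr18_24591 lie close together in both groups, and chr17_23642 is lower after ischemia-reperfusion.

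Further members were named after their values were seen. Of these, chr11_7910 had 67.3, 53.8 and 46.6 CPM after ischemia-reperfusion, against 14.3, 13.6 and 15.2 CPM in normal hearts, a smaller but tight rise (log2 fold change 1.95 ± 0.25, edgeR adjusted p = 0.00217). chrX_83178, chr2_41180 and chr11_6374 had no count in any normal library, with 76, 64 and 60 counts in all over the ischemia-reperfusion libraries. Set against a floor of 3 counts over the 3 normal libraries together, they were at least 80.2-fold, 67.6-fold and 63.3-fold higher. That floor covers counting error alone and not the spread between hearts, and single counts are not listed in the table. chr13_11217, chr13_11289 and chr13_11297 list 1 sequence and hold identical counts of 7, 7 and 17 after ischemia-reperfusion, against 2, 4 and 9 in normal hearts, so their 3 calls are 1 signal (log2 fold change 2.66, edgeR adjusted p = 0.0122). The call was lost without normal replicate 1, at 2.28, and without normal replicate 2, at 2.42.

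The 2 members that fell were chr17_23642 and chr8_75534.
chr17_23642: cUCACCUGgagcauguuuucu
chr8_75534: uAGAAGUUucagguguagga
chr17_23642 had 7.12, 9.86 and 8.98 CPM after ischemia-reperfusion, against 15.9, 19.1 and 18.1 CPM in normal hearts. The groups did not overlap, but its log2 fold change of -1.02 ± 0.34 lay close to the threshold (edgeR adjusted p = 0.0453), and 12 of 15 alternatives ended the call, all with the same sign. Among these was leaving out any 1 library other than normal replicate 1, which gave -1.13 to -0.82. chr8_75534, named after its values were seen, had 2, 0 and 2 counts after ischemia-reperfusion and 91, 52 and 114 counts in normal hearts. This is 1.29, 0 and 0.691 CPM after ischemia-reperfusion, against 14.3, 6.62 and 15.1 CPM in normal hearts (log2 fold change -4.27 ± 0.84, edgeR adjusted p = 0.00653). Its most abundant tag was a run of 16 bases within the listed sequence, shorter than a miRNA.

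Across ischemia-reperfusion hearts the rises were uneven. Of the 23 members that rose, 18 were highest in replicate 1, 1 in replicate 2 and 4 in replicate 3, and 14 were lowest in replicate 3. Replicate 1 was also the shallowest library, and the shorter predicted entries took 7.98%, 3.98% and 1.57% of counts in ischemia-reperfusion replicates 1 to 3, against 0.570%, 0.442% and 0.552% in normal replicates 1 to 3. Liver miRNAs took 0.178%, 0.127% and 0.0836% after ischemia-reperfusion, against 0.0602%, 0.0706% and 0.101% in normal hearts. The part of these in the rises was not tested. Without ischemia-reperfusion replicate 1, where 58 members were tested, 26 were called higher, among them all 23.

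By length, seed and agreement with the listed sequence the calls fell as follows, beside 33.4% higher over all entries tested. Of 8 tested members of 24 bases 7 rose, 3 of which are the identical chr13 entries, and of 14 tested members of 20 bases 9 rose. Of tested members of 21, 22 and 23 bases 4 of 9, 1 of 9 and 1 of 5 rose, and the 1 tested member of 25 bases rose. Of 12 tested members that share a seed with a named miRNA 2 rose, and of 34 that share none 21 rose. Where the listed sequence was the most abundant tag, 6 of 16 tested members (4 distinct sequences among the 6) rose and 1 fell, and where another tag was, 17 of 30 rose and 1 fell. These are counts over members chosen with the values known, and no test of them was made.

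Per the authors' table, the listed sequence was the most abundant tag in 63 of the 144 members. In 79 others a different tag was, and 63 of these tags carried exactly 1 substitution, 15 none and 1 more than 1. The single substitution fell on the last listed base in 28, and 22 of those 28 were to U. Exact copies of the listed sequence were absent from all libraries for 71 members, among them 12 of the 23 that rose. Also among the 23, the tags given as most abundant for chr2_42281, chrX_83585, chr4_58563, chr10_251 and chr19_27613 were under 20 bases, at 19, 17, 15, 18 and 15 bases. The tag given for chr19_27613 had 0 counts over the libraries, where the exact listed sequence had 3, so the counts do not show it as the most abundant.

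As a whole the members took 0.811%, 0.707% and 0.629% of all counts in ischemia-reperfusion replicates 1 to 3, against 0.462%, 0.494% and 0.476% in normal replicates 1 to 3. The means were 0.716 ± 0.0913% after ischemia-reperfusion and 0.478 ± 0.0160% in normal hearts (SD, n = 3 each; two-sided exact permutation p = 0.1, the smallest p that 3 libraries against 3 allow, and 0.1 after adjustment over the 3 library values tested). The groups did not overlap. chr10_4557 and chr3_46757 together took 0.430%, 0.436% and 0.413% after ischemia-reperfusion, against 0.400%, 0.435% and 0.412% in normal hearts, which overlapped. The other 142 members took 0.381%, 0.271% and 0.216% after ischemia-reperfusion, against 0.0620%, 0.0596% and 0.0644% in normal hearts. Counting error reached at most 0.0454 percentage points for these shares and those of the shorter entries (95% Wilson intervals). Reads were amplified by PCR without molecular identifiers, so the intervals cover counting error only.

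**Figure D4:**
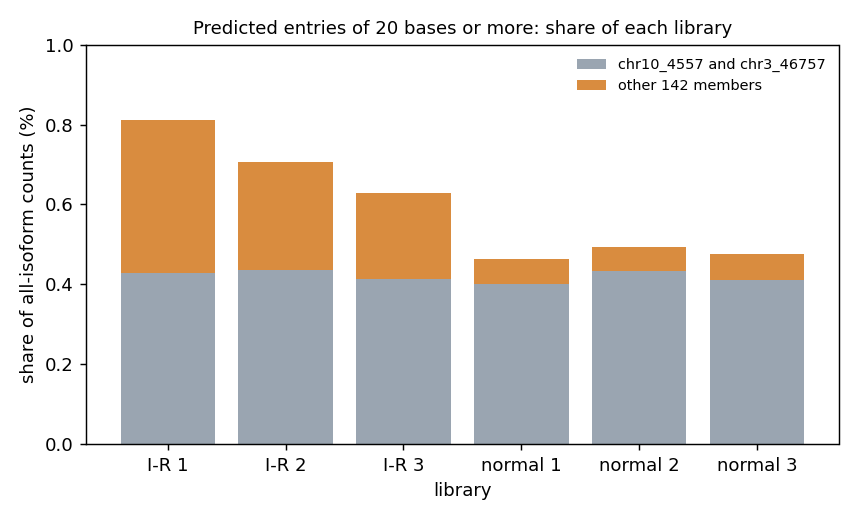
Share of all-isoform counts (y axis, percent) taken by the members in each of the 6 libraries, split into the 2 most abundant members and the other 142. The lower block is level at 0.400% to 0.436% in all libraries, and the upper block is taller in the 3 ischemia-reperfusion libraries on the left.

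Exact copies of the listed sequences made up 23.6%, 26.8% and 28.8% of the members' counts in ischemia-reperfusion replicates 1 to 3, against 36.9%, 33.8% and 32.6% in normal replicates 1 to 3. The groups did not overlap, with means of 26.4 ± 2.61% after ischemia-reperfusion and 34.4 ± 2.19% in normal hearts (SD, n = 3 each; two-sided exact permutation p = 0.1, adjusted 0.1). Within the near copies the share was 37.1%, 37.1% and 38.0% after ischemia-reperfusion, against 37.9%, 34.6% and 33.7% in normal hearts, which overlapped. Within the other members it was 5.13%, 6.27% and 4.93% after ischemia-reperfusion, against 13.5%, 16.5% and 15.8% in normal hearts. These shares are pooled over entries, so they also depend on which entries hold the counts. chr2_42282 and chr2_42281, with no exact copy in any library, held 7116 and 1028 counts over the ischemia-reperfusion libraries together. Over the normal libraries they held 859 and 124. Their part in the difference was not tested. Wilson intervals of these shares extended 1.93 percentage points at most. When exact copies alone were counted, 14 members were tested and 3 rose, chr18_24969, chr12_8764 and chr4_54843, while 10.9% of all 229 entries tested rose in that count. None of the 14 fell at an adjusted p of 0.05 (edgeR), where 5.68% of all 229 entries fell. At an unadjusted p under 0.05 0 members fell as well. Counting the most abundant tag alone, 14 of 35 tested members were called, 13 higher and chr8_75534 lower, where 30.5% of all 387 entries tested were called in either direction.

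The members were also set against the shorter predicted entries of the same library. The log2 ratio of the members' summed counts to those of the shorter entries was -3.30, -2.49 and -1.32 in ischemia-reperfusion replicates 1 to 3, against -0.30, 0.16 and -0.21 in normal replicates 1 to 3. The difference in means was -2.25 and the groups did not overlap (two-sided exact permutation p = 0.1, adjusted 0.1, n = 3 each). Without chr10_4557 and chr3_46757 the log2 ratios were -4.39, -3.87 and -2.86 after ischemia-reperfusion, against -3.20, -2.89 and -3.10 in normal hearts. These overlapped, with a difference of -0.64 (exact permutation p = 0.4). No member's listed sequence shared a run of 16 or more bases with that of a shorter predicted entry. Most abundant tags were not compared in this way.

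The 98 members that were not tested had at most 66 counts each over all libraries. Of these, 22 had counts in ischemia-reperfusion libraries alone, 27 in normal libraries alone, 37 in both and 12 in none. With normal libraries deeper in every case, no difference is read from them.

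The authors' deposited table compares the same groups on normalized scores with 10 added to each mean, and 50 members are among its 589 rows. Of the largest rises shown above, chr2_42282, chr2_42281, chr3_50149, chr6_67085, chrX_83585 and chr4_58563 are not among the 50, so it gives no result for them. chr12_8764 and chr18_24969 are, with folds of 13.4 and 15.6 after ischemia-reperfusion over normal. None of the 50 members in the authors' deposited table has a false discovery rate under 0.05, where 1 of the 589 rows (0.17%) does. At an unadjusted p under 0.05 the authors' deposited table has 13 members with a fold above 1 and 1 with a fold below 1, where 13.9% and 5.43% of all its rows do.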

How the data were processed

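Size-selected small RNA was sequenced on an Illumina NextSeq, per the labels' protocols. Novoalign 2.07.11 is named in the submitters' processing notes. Not given in the sources used here are its role, the genome build and how entries were predicted. The deposited values are raw tag counts per library for exact, most abundant and all-isoform sequences, per the file headers. Blank cells were read as 0, and the smallest count listed is 2. The comparison that the authors deposited holds a mean score for each group, the fold between them and p-values.

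All-isoform counts of all 1191 entries were fitted in R 4.3.3 with edgeR 4.0.16 (filterByExpr, minimum count 10, TMM, robust quasi-likelihood F test, Benjamini-Hochberg adjustment, threshold 0.05). SE was derived from F, and CPM from library totals scaled by TMM. Each row counts tags for its own entry, so nested sequences can be counted more than once. The fit was tested on simulated data. Library shares were tested by two-sided exact permutation (SciPy 1.17.1). Members and lists were chosen with earlier results of these data known. Named members are those past the threshold with at least 10 CPM and separate groups (the 8 largest rises, up to 8 falls), the 8 most abundant, the 4 smallest changes at 10 CPM or more, and up to 6 that match a named miRNA or a heart muscle seed. Replicates are separately labelled hearts, with no further identity, and p-values reflect their spread alone. DESeq2 1.42.0, 4 other scalings, no filter, the other count columns, a replicate block and leaving out each library were alternatives.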

Additional observations from a re-analysis of the deposited data

How the results depend on the processing

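The 23 members called higher were 23 again with RLE, total-count and named-miRNA scaling and with DESeq2, in each case the same 23 entries, and 22 with upper-quartile scaling. There were 34 with no filter, of which 22 were among the 23, 3 with exact mature sequence counts and 13 with the most abundant sequence, where 20 and 10 of the 23 had too few counts to be tested. Leaving out 1 library gave 20 to 28. Of the 23, 17 were called again without normal replicate 1 and 17 without normal replicate 2, where 22 were tested each time. Without any other library 21 to 23 were called again. The 2 members called lower were 1 with RLE, total-count and named-miRNA scaling, no filter, most abundant sequence counts and the replicate block, 0 with exact counts, 9 with upper-quartile scaling (5 of them near copies of named miRNAs), and 1 to 2 when 1 library was left out. Scaling moved the median log2 fold change of all tested entries from -0.17 (TMM) to -0.06 (RLE), -0.67 (upper quartile), 0.07 (total counts) and 0.17 (named miRNAs). The shares of all entries called with upper-quartile scaling and with no filter are not given here. Members' counts in those settings therefore cannot be set beside those of all entries.

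Small changes turned sign. chr10_4557 was 0.088 with named-miRNA scaling and 0.11 with exact counts. chr3_46757 was 0.12 with total counts, 0.22 with named-miRNA scaling, 0.10 with exact counts and -0.35 to 0.024 when 1 library was left out, positive without ischemia-reperfusion replicate 1. chr3_51881 was 0.014 with RLE, 0.13 with total counts, 0.24 with named-miRNA scaling, 0.0027 with DESeq2, 0.42 with exact counts and -0.29 to 0.028 when 1 library was left out, positive without ischemia-reperfusion replicate 3. chr4_58209 was 0.43 with exact and 0.28 with most abundant counts, and chr14_13856 was -0.43 to 0.0045 when 1 library was left out, positive without ischemia-reperfusion replicate 1. The cause was not tested.

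With the replicate block 19 members were called higher, all among the 23, and chr9_80776, chr19_27839, chr8_75946 and chr4_54843 were not called. The labels give no pairing of the hearts. Deviations of same-numbered libraries correlated at -0.236, 0.0123 and -0.161, and not every library correlated best with its own number. With so few libraries a group, such correlations cannot decide whether the hearts were paired.

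The difference in the members' share of counts ranged from 0.190 to 0.282 percentage points when 1 library was left out and was 0.228 without the 2 most abundant members, a setting chosen after seeing the data. That of the exact share ranged from -9.20 to -6.61 and the log2 ratio to shorter entries from -2.78 to -1.79. With 3 hearts a group, ischemia-reperfusion libraries all shallower, and most members under 100 counts, small changes in rare members were not detectable.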
